A study of Drosophila melanogaster with 18 samples.

Results

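The JAK/STAT genes of the Drosophila adult midgut are described here as they stand in lists of genes bound by the transcription factor Ets21c and by RNA polymerase II (PolII). The 10 genes were taken by symbol, as a pathway chosen when earlier results of these data were known: the ligands upd1, upd2 and upd3, the receptor dome, the receptor-like gene et, the Janus kinase hop, the transcription factor Stat92E, and the inhibitors Socs36E, Ptp61F and Su(var)2-10. All 10 were listed at least once, among 7136 genes that stand in at least 1 of the 4 lists and 17873 genes of the annotation. Binding was measured by Targeted DamID (TaDa), in which a protein carries the bacterial methylase Dam, which marks the adenine of GATC sites near where the fusion sits, and the marked fragments are amplified and sequenced. Intestinal stem cells and enteroblasts together (ISCs/EBs) were reached with esg-Gal4 and enterocytes (ECs) with Myo1A-Gal4, each in flies that also carried UAS-GFP and tub-Gal80-TS. In each of the 2 cell populations 3 samples expressed UAS-LT3-Dam, 3 UAS-LT3-Dam-PolII and 3 UAS-LT3-Dam-ets21c-RA, which makes 18 samples of mated adult females kept for 72 h at 29°C. All 3 transgenes sat at the same genomic landing site and were expressed at low level, so the Ets21c values describe an added, tagged RA isoform and not the endogenous protein. The esg driver is active in stem cells and in enteroblasts, which cannot be told apart here, and each sample pooled whole midguts of several flies.

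Each listed gene has a single height per list, the log2 ratio of fusion signal to that of Dam alone, and a single false discovery rate (FDR), both computed by the authors. Replicates were already combined in these values, so no spread between samples can be given, no difference between heights was tested, and the read depth is unknown. For Ets21c the second replicate of each cell type was left out by the authors as noisy. An Ets21c height belongs to a peak within 5 kb of the gene with no other gene between, a PolII height is the mean ratio over the transcript. The Ets21c and PolII heights of a cell type were taken over the same Dam-only samples. A gene that is not listed has no value, and its signal may lie anywhere below the thresholds.

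The JAK/STAT pathway is the fly's counterpart of cytokine signaling. Secreted Unpaired (Upd) proteins bind the receptor Domeless, the kinase Hopscotch bound to the receptor phosphorylates it and the transcription factor Stat92E, and phosphorylated Stat92E enters the nucleus and activates its targets, among them the gene of its own feedback inhibitor, Socs36E. In the adult midgut the pathway is known for driving stem cell division and the maturation of daughter cells after damage or infection, with upd3 produced by stressed ECs and by progenitors.

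Ets21c was listed at 8 of the 10 genes in ISCs/EBs, where 28.9% of all annotated genes were listed, and at 8 of 10 in ECs, where 27.1% were. In 7 of the 10 it was listed in both cell types, against 19.1% of all genes. Only dome had no Ets21c height in either cell type, et was listed in ISCs/EBs alone and Su(var)2-10 in ECs alone. PolII was listed over 5 of the 10 genes in ISCs/EBs (12.4% of all genes) and over 1 of 10 in ECs (5.3% of all genes). Both proteins were listed at upd3, Stat92E, Socs36E and Ptp61F in ISCs/EBs (4 of 10, against 8.76% of all genes) and at Stat92E in ECs (1 of 10, against 3.37%). The members are long genes, with a median of 7266.5 bp against 1695.5 bp for 17796 genes on the assembled chromosomes. Their loci, taken with 5 kb on each side, held a median of 3.93 GATC sites per kb against 3.35 for all genes. The part of gene length and GATC content in these counts was not tested.

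**Figure D1:**
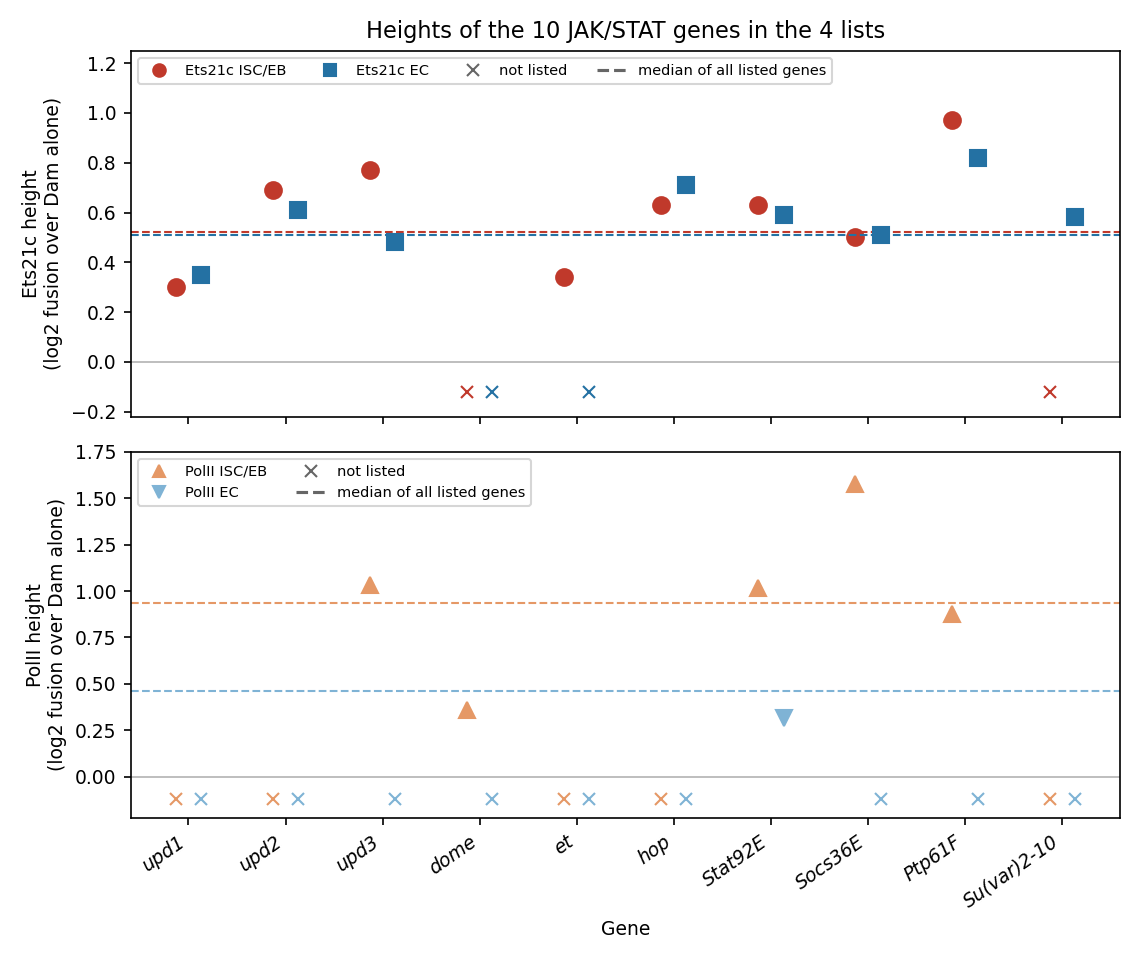
Heights of the 10 genes as log2 ratios to Dam alone, Ets21c above (circles, ISCs/EBs; squares, ECs) and PolII below (upward triangles, ISCs/EBs; downward triangles, ECs), 1 value per gene and list. Crosses mark genes not listed and dashed lines the median of all listed genes. Ets21c heights stand between 0.3 (upd1) and 0.97 (Ptp61F) in ISCs/EBs, and Stat92E is the one gene of the 10 with a PolII height in ECs.

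The median Ets21c height of the 8 listed members was 0.63 in ISCs/EBs, where all 5184 listed genes had a median of 0.52, and 0.585 in ECs, where the median over 4854 genes was 0.51. In each cell type 5 of the 8 lay above the list's median and 3 below or at it. The median PolII height of the 5 members in ISCs/EBs was 1.018 beside 0.934 for the whole list of 2216 genes, with 3 of 5 above it.

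The 3 ligand genes lie together on the X chromosome (dm6) within a span of 68.6 kb, in the order upd2, upd3, upd1. Upd2 occupies chrX:18240654-18243284 on the minus strand, upd3 chrX:18277233-18284596 on the plus strand and upd1 chrX:18305354-18309291 on the minus strand. A gap of 33.9 kb separates upd2 from upd3 and one of 20.8 kb separates upd3 from upd1. The 250 bases before the annotated start of each ligand gene are given here, 5′ to 3′ on the gene's strand, because GATC sites, in capitals, are the sites at which Dam can leave a mark. They are read from the RefSeq Release 6 genome at chrX:18309292-18309541 (minus strand), chrX:18243285-18243534 (minus strand) and chrX:18276983-18277232 (plus strand).
upd1: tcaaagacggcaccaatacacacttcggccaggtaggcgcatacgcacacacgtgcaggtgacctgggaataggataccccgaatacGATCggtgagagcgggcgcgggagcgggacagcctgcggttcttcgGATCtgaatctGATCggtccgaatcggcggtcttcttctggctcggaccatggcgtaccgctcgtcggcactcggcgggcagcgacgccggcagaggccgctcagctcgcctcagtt
upd2: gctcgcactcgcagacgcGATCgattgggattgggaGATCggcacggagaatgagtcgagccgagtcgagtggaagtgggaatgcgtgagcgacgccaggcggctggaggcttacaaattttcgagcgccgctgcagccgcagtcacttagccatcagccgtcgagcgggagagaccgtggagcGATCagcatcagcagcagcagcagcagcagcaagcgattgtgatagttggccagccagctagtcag
upd3: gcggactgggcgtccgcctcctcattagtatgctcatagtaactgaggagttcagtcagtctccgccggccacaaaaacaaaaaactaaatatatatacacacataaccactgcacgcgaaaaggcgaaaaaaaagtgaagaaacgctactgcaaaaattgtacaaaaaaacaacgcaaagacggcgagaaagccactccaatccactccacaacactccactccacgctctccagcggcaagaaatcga
The upd1 and upd2 windows hold 3 GATC sites each and the upd3 window holds 0. Upd1 has 3 annotated starts, and only the window before the outermost was read. Of 17776 such windows over all genes, 38.8% contain a GATC.

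Upd3, the ligand known for its induction on gut damage, was the one ligand gene with PolII listed. Its PolII height in ISCs/EBs was 1.031 (FDR 1.32e-06), above 58.3% of the listed genes, and it was not in the PolII list of ECs. Its Ets21c height was 0.77 in ISCs/EBs (FDR 0.0001), above 91.5% of that list, and 0.48 in ECs (FDR 0.0001), above 40.4% of that list. Thus upd3 stood high among Ets21c-listed genes of the progenitors and below the median of those of ECs. Upd2, a ligand also known as a fat-body signal of the fed state, had an Ets21c height of 0.69 in ISCs/EBs (FDR 0.0008) and of 0.61 in ECs (FDR 0.00724), above 84.0% and 74.2% of the lists. Upd1, the founding ligand, known from embryonic segmentation and for its expression in progenitors of the resting gut, had heights of 0.3 (FDR 0.0001) and 0.35 (FDR 0.00724), and only 3.11% and 6.96% of the listed genes lay lower. PolII was listed over neither upd1 nor upd2 in either cell type.

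The span from upd2 to upd1 holds 7 genes, 3 of them non-coding. Ets21c was listed at 6 of the 7 in each cell type, where 28.9% (ISCs/EBs) and 27.1% (ECs) of all genes were listed. The exception in both cell types was CG15059, between upd2 and upd3, and the 6 include the 3 ligand genes counted above. The heights did not follow one course in the 2 cell types. In ISCs/EBs the heights along the cluster were 0.69 at upd2, 0.69 at lncRNA:CR45607, 0.54 at lncRNA:CR45613, 0.77 at upd3, 0.54 at lncRNA:CR15061 and 0.3 at upd1, with the top at upd3. In ECs they were 0.61, 0.46, 0.46, 0.48, 0.73 and 0.35 in the same order, with the top at lncRNA:CR15061, which lies between upd3 and upd1. Beyond upd1, CG6023 had 0.59 in ISCs/EBs and 0.87 in ECs.

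**Figure D2:**
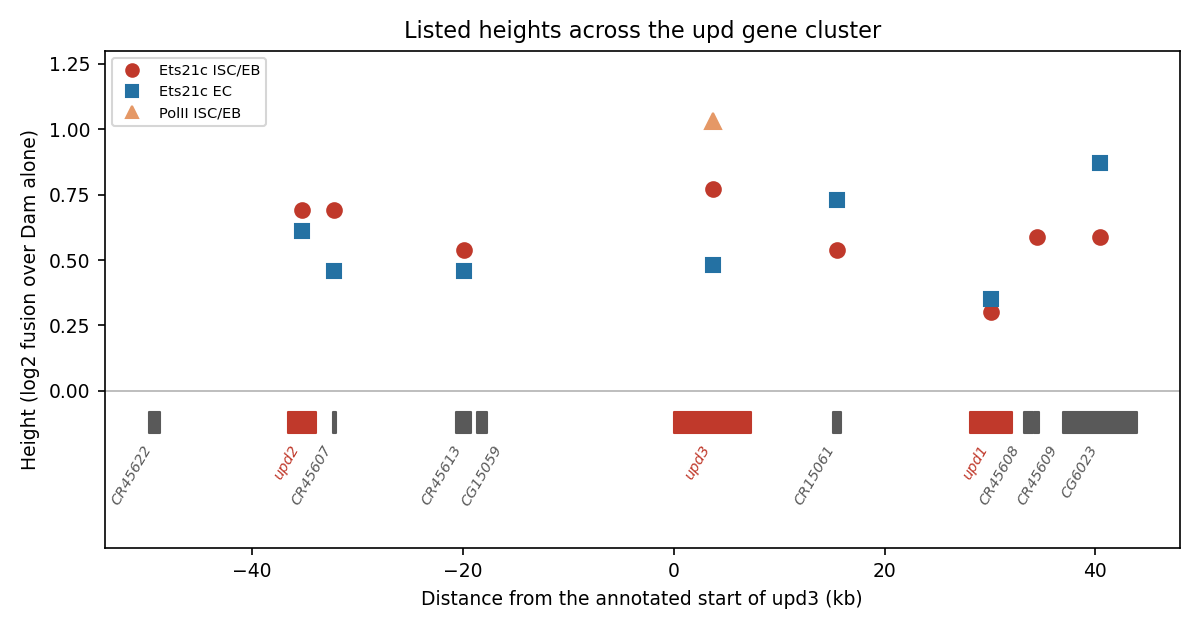
Heights (log2 fusion over Dam alone) of the genes in and around the upd cluster against distance from the annotated start of upd3 in kb, with gene bodies as bars (upd genes in red) and each height drawn at the middle of its gene. PolII is listed at 1 gene of the cluster, upd3 (1.031), and the Ets21c heights of upd3 are 0.77 in ISCs/EBs and 0.48 in ECs.

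Dome encodes the transmembrane receptor and et (eye transformer) a shorter relative that is known to antagonize signaling by pairing with it. The genes are neighbors on X on the same strand, dome at chrX:19676061-19683518 and et at chrX:19672312-19675891, with 169 bp between them. Dome had no Ets21c height in either cell type, and a PolII height of 0.36 (FDR 0.00803) in ISCs/EBs, which only 3.34% of the list fell below. Et showed the opposite: no PolII in either cell type and an Ets21c height of 0.34 (FDR 0.0001) in ISCs/EBs, above 6.48% of the list. The same height and FDR were listed for 3 neighbors of et, namely Zw (glucose-6-phosphate dehydrogenase), which overlaps it, the antisense RNA asRNA:CR44512 at 4565 bp and Ssu72, an RNA polymerase II phosphatase, at 5445 bp. On the far side of dome, Ubqn was listed with 0.3. The dome locus with 5 kb on each side held 4.64 GATC sites per kb, more than 88.2% of genes, and the et locus 5.89 per kb, more than 99.0%.

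Hop, the one Janus kinase gene of the fly, lies at chrX:11360930-11368098 on the minus strand. Its Ets21c height was 0.63 in ISCs/EBs (FDR 0.0001), above 74.8% of the list, and 0.71 in ECs (FDR 1e-05), above 88.8%. PolII was listed over hop in neither cell type. PolII was instead listed over both genes at its ends, Pa1 (1.065 in ISCs/EBs and 0.348 in ECs), which adjoins it directly, and Tim8, a mitochondrial import gene (1.888 and 1.1), which lies 346 bp away. In ISCs/EBs the height and FDR of hop were those of dlg1, a cell polarity gene at 1566 bp, and in ECs they were those of Pa1.

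Stat92E, at chr3R:20535323-20552311 on the minus strand, was the one member in all 4 lists, a pattern shared by 387 genes or 5.42% of the 7136. Ets21c was listed with 0.63 (FDR 1e-05) in ISCs/EBs and 0.59 (FDR 2e-05) in ECs, above 74.8% and 71.2% of the lists. PolII was listed with 1.018 (FDR 5.58e-14) in ISCs/EBs, above 57.3% of the list, and with 0.317 (FDR 4.73e-07) in ECs, above 4.43% of the list. Of its neighbors, MtnD and MtnE, metallothionein genes beyond its 3′ end, each had an Ets21c height of 0.45 in ISCs/EBs, MtnE had 0.67 in ECs, and DPCoAC, 73 bp upstream, was in no list. CG5180, 5618 bp upstream, had values close to those of Stat92E, with 0.68 and 0.65 for Ets21c in ISCs/EBs and ECs and 0.959 for PolII in ISCs/EBs.

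Socs36E, the feedback inhibitor, lies at chr2L:18138675-18152417 on the minus strand and had the highest PolII value of the 5 members listed in ISCs/EBs. Its height there was 1.578 (FDR 1.34e-17), rank 193 of 2216 and above 91.2% of the list, and it was not listed for PolII in ECs. Ets21c stood near the middle of both lists, with 0.5 in ISCs/EBs (FDR 0.0001, above 41.5%) and 0.51 in ECs (FDR 0.0001, above 49.3%). In both cell types lncRNA:CR44478, which overlaps it, was listed with the same Ets21c height and FDR. The protein-coding gene CG17681, 705 bp away, also had the same pair in ECs, where 36 genes of the list share it.

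Ptp61F, a tyrosine phosphatase that acts on Hop and Stat92E, had the highest Ets21c height of the 10 in each cell type. In ISCs/EBs it was 0.97, rank 70 and above 98.6% of the list, and in ECs 0.82, rank 198 and above 95.7%, with an FDR listed as 0 in both. PolII was listed with 0.874 (FDR 3.27e-06) in ISCs/EBs, above 45.4% of the list. The gene spans 132765 bp (chr3L:1342493-1475257, minus strand), longer than 99.7% of genes, with 434 GATC sites, and 19 other genes overlap it, 9 of them protein-coding. Of these, ru, which encodes a rhomboid protease, and tRNA:Glu-CTC-3-1 had exactly the Ptp61F height and FDR in both cell types, and CG9166 was listed with 0.67 in ISCs/EBs. A peak inside this gene therefore cannot be assigned to Ptp61F alone from these lists.

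Su(var)2-10, the fly PIAS protein, a SUMO ligase that restrains Stat92E and also acts in heterochromatin, lies at chr2R:9116122-9122000 on the plus strand. It was listed for Ets21c in ECs alone, with 0.58 (FDR 0.00712), above 69.3% of the list, and PolII was listed over it in neither cell type. The genes on either side, Phax and GstE13, were in no list.

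Across the 8 members listed for Ets21c in ISCs/EBs, 5 (upd2, et, hop, Socs36E and Ptp61F) had a height and FDR identical to those of a gene within 50 kb. In ECs 3 of 8 (hop, Socs36E and Ptp61F) did, and 0 of the PolII values did. The share of all listed genes with such a match was not determined, so these counts cannot be called high or low. Heights are given to 2 decimals and FDRs repeat, so a match can arise between unrelated genes: the pair of values was shared by 63 genes of the whole list for Socs36E, 43 for et and 33 for hop in ISCs/EBs, but by 2 genes for upd2 (itself and lncRNA:CR45607, 1607 bp away) and by 4 for Ptp61F. Whether such genes were assigned the same peak cannot be read from the lists, since peak positions were not used here. Upd1, upd3 and Stat92E shared their pair with no gene within 50 kb in either cell type.

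Between the cell types, 4 of the 7 members listed in both had the higher Ets21c height in ISCs/EBs, against 56.3% of the 3422 genes listed in both. The difference, ISCs/EBs minus ECs on the log2 scale, was 0.29 for upd3, 0.15 for Ptp61F, 0.08 for upd2, 0.04 for Stat92E, -0.01 for Socs36E, -0.05 for upd1 and -0.08 for hop. Over all 3422 genes its median was 0.03, with an interquartile range from -0.08 to 0.14. Of the 7, upd3 and Ptp61F lay outside that range: 92.6% of the genes had a lower difference than upd3 and 75.2% a lower one than Ptp61F. The other 5 stood within it or on its edge. With 1 value per cell type, none of these differences can be set against replicate error.

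**Figure D3:**
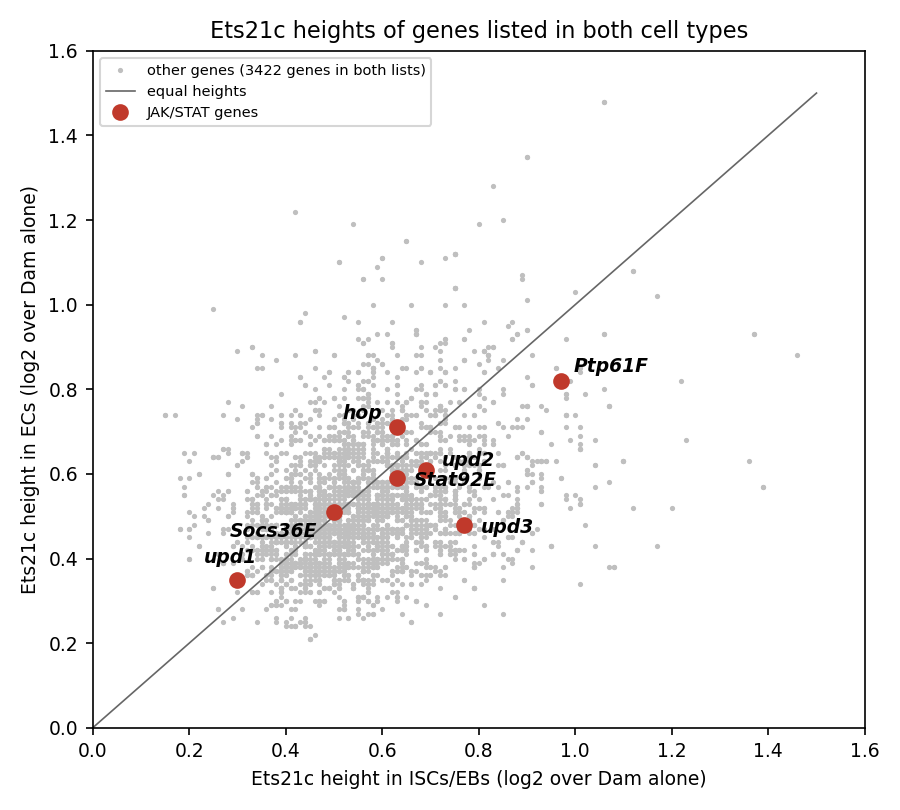
Ets21c height in ECs against that in ISCs/EBs (log2 fusion over Dam alone), 1 point per gene for the 3422 genes listed in both, with the 7 JAK/STAT genes in red and the line of equal heights. Upd3 lies well to the right of the line (0.77 against 0.48), and the other 6 closer to it.

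For PolII the same comparison can be made for Stat92E alone. Its height was 0.701 lower in ECs than in ISCs/EBs (0.317 against 1.018), and among the 708 genes that had a PolII height in each cell type 99.6% were likewise lower in ECs, by a median of 0.77. The difference of Stat92E was thus no larger than that of most genes, and 41.9% of the 708 had a smaller one. The absence of upd3, dome, Socs36E and Ptp61F from the EC list is to be read beside this: that list was shorter (948 genes) with a median height of 0.459, and lower PolII binding in ECs cannot be told apart from a smaller range of the whole list.

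**Figure D4:**
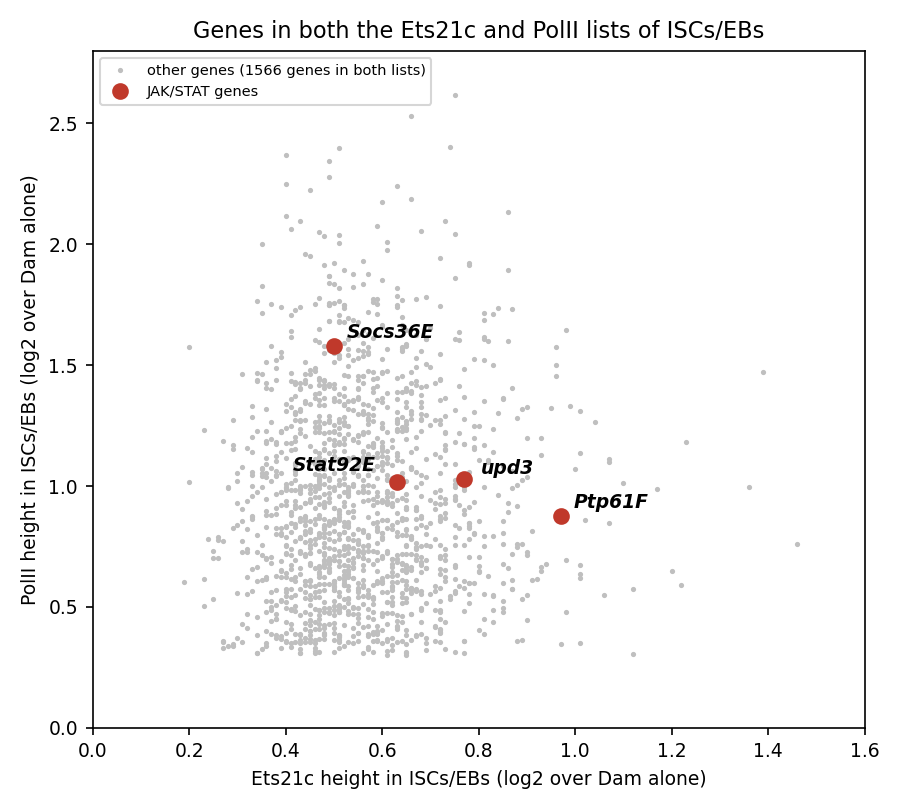
PolII height against Ets21c height in ISCs/EBs (log2 fusion over Dam alone) for the 1566 genes in both lists, with upd3, Stat92E, Socs36E and Ptp61F in red. Socs36E has the highest PolII height of the 4 (1.578) and the lowest Ets21c height (0.5), and Ptp61F the reverse (0.874 and 0.97).

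Of the cell type markers, PolII was listed over 6 of 6 progenitor markers, esg, Dl and Sox21a among them, in ISCs/EBs and over 0 of 6 in ECs. The shares of all genes listed for PolII were 12.4% in ISCs/EBs and 5.3% in ECs. A count of 0 of 6 in ECs lies near that share and does not show that progenitor signal is absent there. Of 5 EC markers, 3 were listed in ECs (mex1, Jon99Ci and GATAe at 0.594, 0.583 and 0.56), while Myo31DF and nub were not. Myo31DF (0.472), mex1 (1.105) and GATAe (1.543) were also listed in ISCs/EBs. The heights of mex1 and GATAe were thus greater in ISCs/EBs than in ECs, as for 99.6% of the 708 genes listed in both. The 4 enteroendocrine markers were in neither PolII list, and of 3 visceral muscle and 3 hemocyte markers only Mef2 (0.349) and srp (0.861) were listed, both in ISCs/EBs. The part of EC transcripts or of other cells in the PolII values of upd3, Socs36E, Stat92E, Ptp61F and dome in ISCs/EBs was not tested.

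Among genes in exactly the same lists, those with the most similar heights were sought by Euclidean distance. For upd3, of 795 candidates, the nearest were Fit1, a kindlin of integrin adhesion (distance 0.036; PolII 1.059, Ets21c 0.78 in ISCs/EBs and 0.50 in ECs), CG31689 (0.074) and Nadk2 (0.095). Stat92E, compared over 4 lists with 386 candidates, was nearest to Rab11, a GTPase of recycling endosomes (0.056), scu (0.093) and Gk2 (0.099). Ptp61F was nearest to the GATA factor gene srp (0.060), then lama (0.131) and the glycogen phosphorylase gene Glyp (0.170). Socs36E was nearest to CG10734 (0.017), Tim17b1 (0.056) and CG43693 (0.068). Upd1, upd2 and hop, with only 2 heights each and 2162 candidates, had neighbors at 0.01, the step of the heights: mAcon1 and mon2 for upd1, CG30089 and ddbt for upd2, and Eip63E and lncRNA:CR45820 for hop. Closeness here is over 2 to 4 values and is a description only.

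Of 10 further regulators of the pathway, Ets21c was listed at 6 in ISCs/EBs and at 5 in ECs, and PolII over 6 and 2, where the shares of all genes were 28.9%, 27.1%, 12.4% and 5.3%. Windpipe (wdp), a membrane protein that promotes turnover of the receptor, had Ets21c heights of 0.66 and 0.49 and PolII heights of 1.395 and 0.362 in ISCs/EBs and ECs. Another SOCS gene, Socs44A, had 0.33 for Ets21c and 1.14 for PolII in ISCs/EBs and was in neither EC list. Ken, a repressor of some Stat92E targets, had 0.47 and 0.46 for Ets21c and 1.355 for PolII in ISCs/EBs. Cdk4 and its partner CycD had Ets21c heights between 0.41 and 0.49 in both cell types. PolII was listed over both in ISCs/EBs (1.224 and 0.893) and over Cdk4 alone of the pair in ECs (0.41). BRWD3 was listed for Ets21c alone (0.53 and 0.65) and apt for PolII alone (0.693), and Socs16D, asrij and lwr were in no list.

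Of 9 genes known to respond to Stat92E, Ets21c was listed at 3 in ISCs/EBs (zfh1 0.55, zfh2 0.5 and vir-1 0.47) and at 0 in ECs, and PolII over 1, zfh2, in ISCs/EBs (0.581) and over 0 in ECs. In ISCs/EBs these counts lie close to the shares of all genes listed, 28.9% for Ets21c and 12.4% for PolII, and in ECs those shares were 27.1% and 5.3%. The stress-induced Turandot genes TotA and TotM, and chinmo, slbo, Diedel and Tep1, were in no list. For the 10 genes known as inputs to upd3 in the gut the count was 8 in ISCs/EBs and 9 in ECs for Ets21c, and 5 and 1 for PolII, beside shares of all genes of 28.9%, 27.1%, 12.4% and 5.3% in the same order. Kay, the Fos subunit of AP-1, had 1.39 in ISCs/EBs and 0.57 in ECs for Ets21c, with PolII at 1.471 in ISCs/EBs. Its partner Jra (Jun) had 0.78 and 0.46. The JNK kinase gene hep ran the other way, with 0.61 in ISCs/EBs and 0.93 in ECs, and the JNK gene bsk had 0.55 in both. Mekk1 (0.83 and 0.47), sd (0.71 and 0.48), p38a (0.55 and 0.67) and Src42A (0.67 and 0.74) were listed in both, yki in ECs alone (0.33), and the cation channel gene TrpA1 in no list.

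The DNA of the loci was searched on both strands for CCGGAA, a core common to sites of ETS factors, and for the longer CCGGAAGT, which contains it. No match to either was found in the 250 bases before the outermost start of any of the 10 genes. Of all 17776 such windows, 5.52% and 0.332% hold one. Upd1 (3 annotated starts), Stat92E (2), Ptp61F (4) and Su(var)2-10 (2) have other starts, whose upstream windows were not examined separately. Within the gene and 5 kb on each side, the members held a median of 0.370 matches to CCGGAA per kb, beside 0.375 for all genes. Hop held 13, more per kb than 93.6% of genes, Stat92E 13 (69.4%) and upd3 7 (56.0%), while upd1, upd2, et and Su(var)2-10 held 3 each, more per kb than 17.09% to 22.97% of genes. The palindrome TTCCGGAA counts once on each strand, at all genes alike. Some of the 13 matches at hop are such pairs, as at 5.145 and 5.147 kb from its start, so its separate places are fewer. The longer motif was found at upd3 (2 matches, more per kb than 96.8% of genes), Stat92E (1), Socs36E (1), Ptp61F (3) and Su(var)2-10 (1), and at 0 places at upd1, upd2, dome, et and hop. The matches of the 4 genes listed for both Ets21c and PolII in ISCs/EBs are shown in windows of 30 bases, with the motif in capitals, 5′ to 3′ on the strand that carries it.
upd3, chrX:18274577-18274606 (+), 2.65 kb before the start and between genes: agaagaactcgCCGGAAGTtcgtgtatgta
upd3, chrX:18279739-18279768 (-), in coding sequence: tggaaggtcagCCGGAAGTtggccgctctg
Stat92E, chr3R:20546288-20546317 (+), in an intron: tttcttagcacCCGGAAGTttgacagtttc
Socs36E, chr2L:18140481-18140510 (-), in coding sequence: tcggtcacattCCGGAAGTacggcaggtca
Ptp61F, chr3L:1356693-1356722 (+), in an intron: aagttcttcgcCCGGAAGTttgttcagttt
Ptp61F, chr3L:1412626-1412655 (-), in an intron of Ptp61F and in the coding sequence of CG9168: gtttctgttagCCGGAAGTtggaagaacag
Ptp61F, chr3L:1465724-1465753 (-), in an intron of Ptp61F and in the coding sequence of rho: atcctccgactCCGGAAGTggcgtggccgg
The match before upd3 lies 22 bp from the nearest GATC, and the others lie 70 to 419 bp from one. A match describes the letters only, and genes without one (upd1, upd2, et and hop) were listed for Ets21c as well.

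Sites of Stat92E have the form TTCNNNGAA or the same ends with 4 bases between, and both were counted. Socs36E held 22 of the first form and 20 of the second, more per kb than 99.7% and 99.3% of genes, and 31 of these 42 lie in its introns. Dome held 16 of the second form, more per kb than 99.6% of genes. It was the one member with a match in the 250 bases before the outermost start. Of all such windows 7.81% have one, and 7.64% have the first form. The AP-1 form TGANTCA occurred 12 times at Socs36E and 7 times at upd3, more per kb than 96.4% and 90.1% of genes, at 0 places at dome, and in none of the 10 upstream windows (5.34% of all). One intronic window of 200 bases with several STAT forms is shown for each of Socs36E and dome, with the matches in capitals, on the strand of the gene. Other stretches of this length in both genes hold as many.
Socs36E intron, chr2L:18144356-18144555: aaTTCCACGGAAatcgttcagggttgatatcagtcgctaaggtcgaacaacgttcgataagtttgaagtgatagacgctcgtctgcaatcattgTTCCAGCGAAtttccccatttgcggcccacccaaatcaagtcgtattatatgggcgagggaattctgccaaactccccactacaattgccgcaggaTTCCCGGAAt
dome intron, chrX:19679962-19680161: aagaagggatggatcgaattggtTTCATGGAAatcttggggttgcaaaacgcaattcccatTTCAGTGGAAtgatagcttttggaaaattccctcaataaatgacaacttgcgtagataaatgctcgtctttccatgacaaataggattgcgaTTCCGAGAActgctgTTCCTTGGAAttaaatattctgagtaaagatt
The Socs36E window holds 3 STAT matches and no GATC, and the dome window holds 4 STAT matches and 1 GATC.

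**Figure D5:**
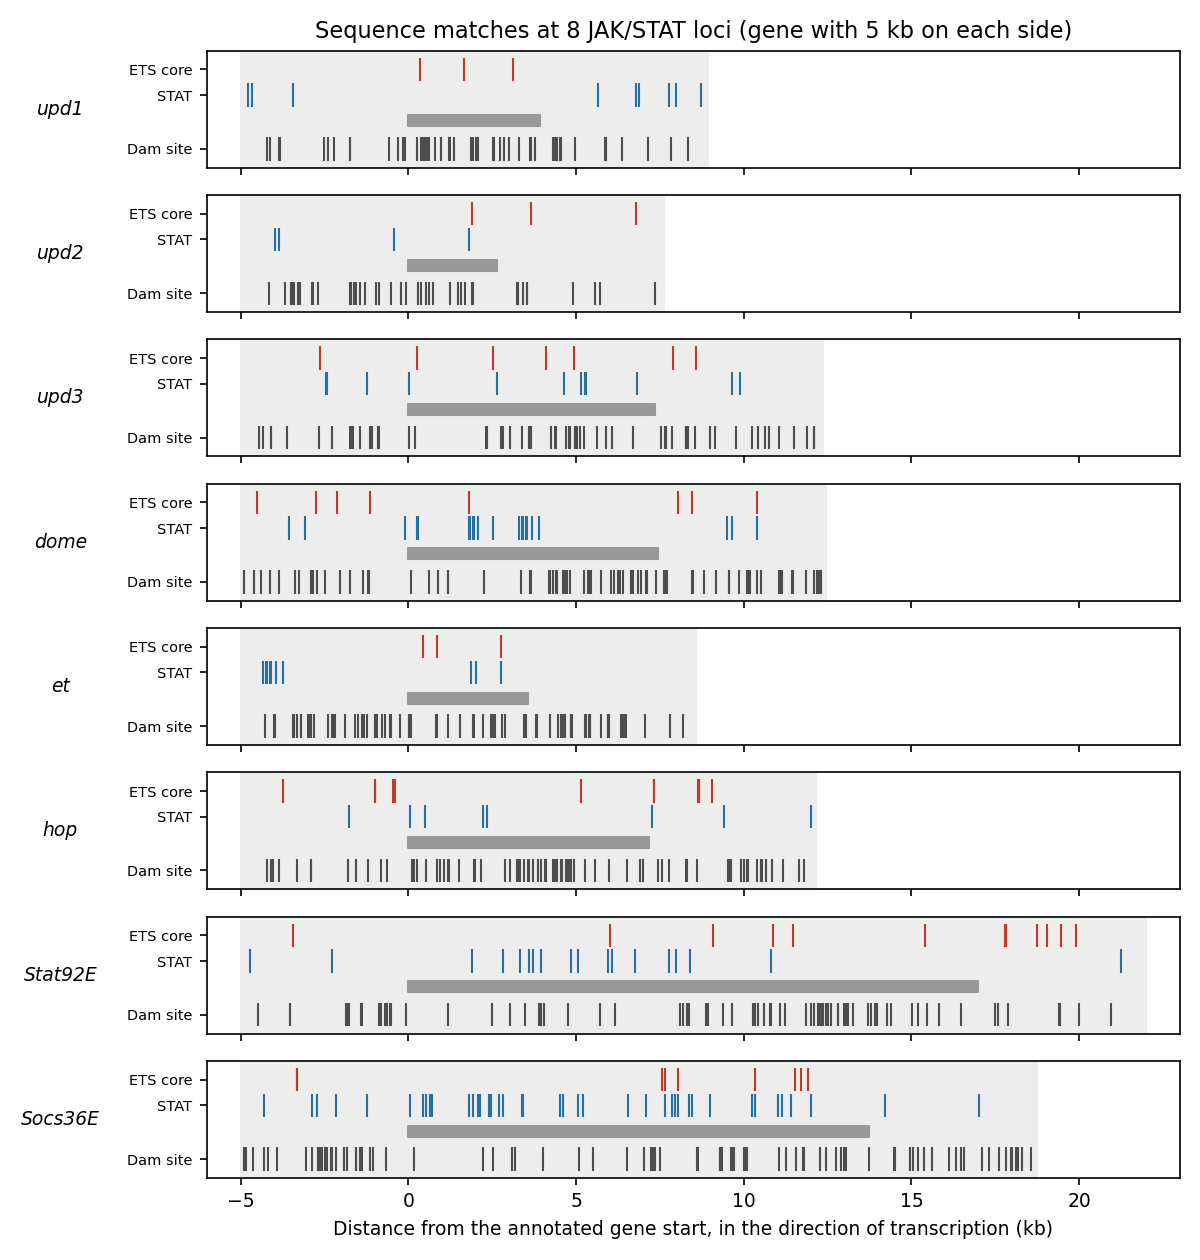
Matches along 8 loci against distance from the annotated gene start in kb, in the direction of transcription: the ETS core (red), both STAT forms (blue) and GATC sites (black), with the gene as a grey bar and 5 kb on each side shaded. Ptp61F (132765 bp) and Su(var)2-10 are not drawn. STAT forms are densest at Socs36E, which has 42.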

How the data were processed

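The series holds 18 TaDa samples, and the deposited table gives 4 lists of genes, PolII and Ets21c in ISCs/EBs and in ECs. The second Ets21c replicate of each cell type did not enter these lists. Reads were aligned, and log2 ratios to Dam alone were made for each fusion, by the authors with damidseq_pipeline. The submitters' processing notes name build dm3, whereas the study's methods give annotation release 6 for PolII, and no coordinate was taken from the deposited file. The log2 height of each gene is the authors' value: for Ets21c that of a called peak assigned to the gene, for PolII the mean ratio over the transcript, averaged over replicates. The FDR is the authors' own, for PolII modeled from randomized data and given as the highest of the replicates. The file's headings state minimum heights of 0.3 and 0.2 for PolII and 0.1 for Ets21c and an FDR limit of 0.01, while the methods give 0.3 for Ets21c peaks. The lowest deposited heights are 0.301 for both PolII lists and 0.15 and 0.14 for Ets21c.

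Listed genes were matched to Ensembl release 115 (FlyBase 6.54, BDGP6) by FlyBase ID and then by symbol, current or older. Of 2216, 948, 5184 and 4854 listed genes, 1, 1, 12 and 11 found no current gene, and 2214, 947, 5172 and 4843 current genes were used for shares of the annotation. Motifs and sequences were read from the RefSeq Release 6 genome on both strands. The motif search, for CCGGAAGT alone, and a simpler matching of genes, by ID and then current symbol, were tested on simulated data with known answers. The other motifs, those with open bases (N) among them, and the counts per kb were not tested in this way. The matching used for the lists, which also takes older symbols, was not itself tested in this way. No count was tested against chance. Analyses used python 3.11.15, numpy 2.4.6 and matplotlib 3.10.9.

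The text names the 10 members in every list and genes within 50 kb with the same height and FDR. It also names genes among the 3 nearest in height for members in at least 2 lists. The remaining names are listed genes of 3 further lists of pathway genes and of the markers. For upd1, upd2 and hop only 2 of the 3 nearest are named, and not every listed marker is. Other neighbors were named after their values were seen. The members and lists were chosen with earlier results of these data known. Alternatives were minimum heights of 0.3 and 0.5, an FDR of at most 0.001, matching by ID alone, percentiles within a list, protein-coding genes as background, a flank of 2 kb and a longer ETS motif. Reads, peak positions and replicate-level values were not used here.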

Additional observations from a re-analysis of the deposited data

How the results depend on the processing

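No paired analysis was possible because the deposited columns combine the replicates of a group into 1 value per gene, and for the same reason no replicate could be left out. Of 30 alternatives over 13 counts and shares, 27 stayed within 1.5 times the value given, and 3 did not. Some of the 27 could not have changed, so the tally is no measure of stability. The lowest height in both PolII lists is 0.301, so a limit of 0.3 removes no PolII gene. The longer ETS motif contains the core, so windows without the core cannot hold it. With an FDR of at most 0.001, Ets21c was listed at 5 members in ECs in place of 8, upd1, upd2 and Su(var)2-10 falling out. With a height of at least 0.5, PolII was listed over 0 members in ECs in place of 1, and 0 members in place of 1 had both proteins in ECs, since the PolII height of Stat92E there is 0.317. In each case the cause is the stricter limit itself. The shares of all genes that pass these stricter limits were not determined. Whether members fall out more or less often than other genes therefore cannot be said. Over protein-coding genes alone the shares listed were 31.9% and 30.3% for Ets21c and 15.8% and 6.77% for PolII in ISCs/EBs and ECs. Depth is unknown, so a gene that is not listed cannot be called unbound.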
